A study of Mus musculus with 4 samples.

Results

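The 10 genes described here encode proteins that the yolk sac secretes or takes up: the carriers Apoa1, Apob, Apoe, Ttr, Afp, Alb and Rbp4, and the endocytic proteins Amn, Cubn and Dab2. They were chosen by symbol as carriers and endocytic genes of visceral endoderm, and all 10 were found among the 23235 gene symbols of 1 deposited table of FPKM, fragments scaled to transcript length and library size. The study measured RNA in mouse J1 embryonic stem (ES) cells of strain 129S4/SvJae and in the neural progenitor cells (NPCs) made from them, with and without the de novo DNA methyltransferase genes Dnmt3a and Dnmt3b. There were 4 groups of 1 library each. DKO_NP was the double-knockout line and WT_NP the wild-type line after 6 days of differentiation, 4 days as embryoid bodies and then 2 days with retinoic acid. DKO_ES and WT_ES were the same lines at day 0, undifferentiated, in medium with serum and leukemia inhibitory factor. Both lines had been grown on irradiated feeder cells at earlier passages and were moved to gelatin before use. The labels do not say whether the knockout is 1 clone, and embryoid bodies can hold several cell types.

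Visceral endoderm is the layer that surrounds the early mouse embryo and later lines the yolk sac. Before the liver forms it makes the plasma proteins of the conceptus, packages lipid onto apolipoproteins, and takes up maternal proteins through a receptor of cubilin and amnionless whose cargo is brought into the cell with the adaptor Dab2. Embryoid bodies are known to form such a layer on their outside.

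After differentiation, most of the carriers and endocytic genes were lower in the knockout. With a pseudocount of 1 FPKM and libraries scaled to a common median, 6 of the 8 members at or above 1 FPKM in DKO_NP or WT_NP were at least 2-fold lower in DKO_NP (Apoa1, Apob, Ttr, Rbp4, Cubn and Dab2) and 0 were higher. Among all 13601 genes tested with the same scaling, 7.99% were 2-fold lower and 4.76% were 2-fold higher. As deposited 5 members were lower, where 3.90% of genes were lower and 10.2% were higher. After scaling, the members' median log2 ratio was -2.18, beside 0.01 for all genes tested. Apoe and Afp stayed within 2-fold, and Alb and Amn were below the filter in both libraries. With 1 library per group the difference has no replicate check, and no p-value is given. All intervals below are exact 95% intervals from approximate read numbers and cover counting error only.

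In undifferentiated cells, 5 members reached 1 FPKM in DKO_ES or WT_ES. With the pseudocount of 1 FPKM 0 of them differed 2-fold in either direction, where 1.15% of 13596 genes were lower and 2.56% were higher. With a pseudocount of 0.1 FPKM 3 of them, Amn, Cubn and Dab2, were 2-fold lower in DKO_ES, where 2.46% of genes were lower. These 3 were under 1 FPKM in DKO_ES, so they passed the filter only through WT_ES. With differentiation of wild-type cells 7 of 9 members were higher in WT_NP than in WT_ES and 0 were lower, where 16.2% of 14086 genes were higher and 11.3% were lower. In knockout cells 5 of 8 members were higher in DKO_NP than in DKO_ES and 1, Apoe, was lower, where 11.8% of 14050 genes were higher and 11.2% were lower. The 5 higher members were under 1 FPKM in DKO_ES, so they passed the filter only through DKO_NP. Likewise Apoa1, Apob, Ttr and Afp passed only through WT_NP in the wild-type comparison. Without a filter 7 of 10 members were higher in WT_NP and 5 of 10 in DKO_NP, beside 10.1% and 7.16% of all genes. The knockout's differentiation log2 ratio was lower than the wild type's by 1 or more for 6 of 9 members and higher by as much for 0, where 8.81% of 14713 genes were lower and 4.31% were higher. As deposited it was lower for 4 members, where 4.82% of genes were lower and 11.8% were higher. These comparisons share libraries and are not separate observations.

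**Figure D1:**
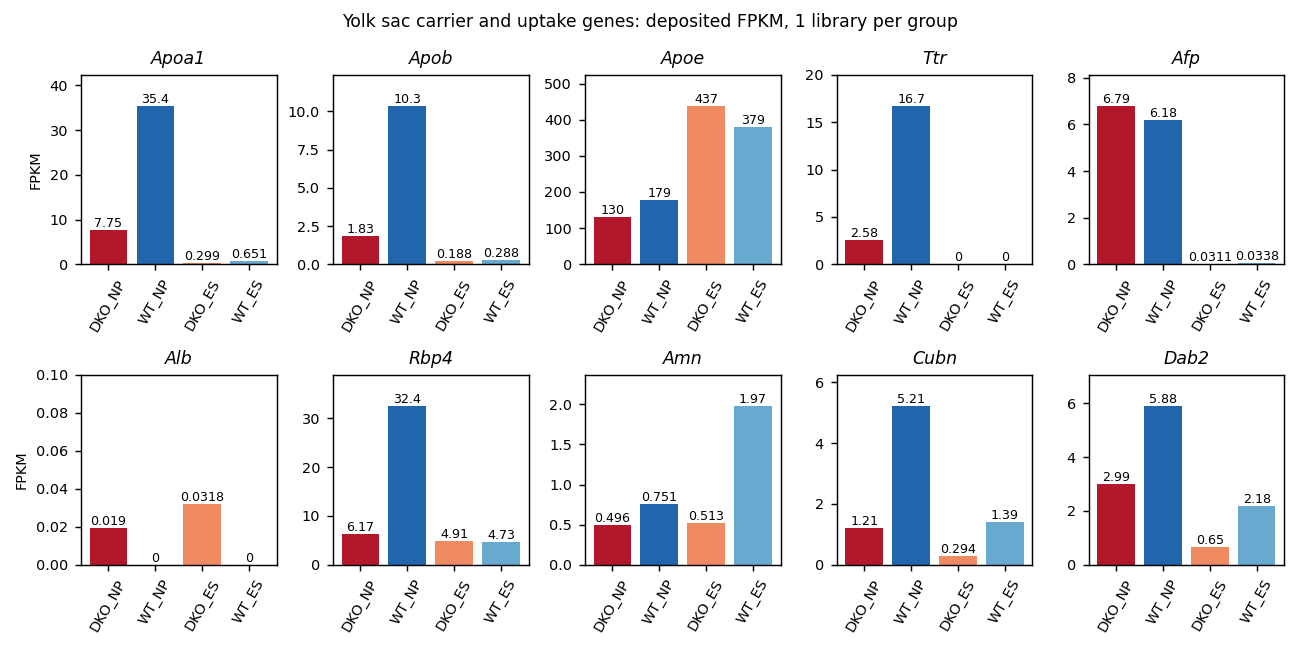
Deposited FPKM (vertical axis, linear from 0, a scale of its own for each gene) of the 10 genes in the DKO_NP, WT_NP, DKO_ES and WT_ES libraries, with 1 bar per library and no error bar because each group has 1 library. Apoa1, Apob, Ttr, Rbp4, Cubn and Dab2 are highest in WT_NP, Afp is near the same level in both day 6 libraries, Apoe is highest in DKO_ES, Amn is highest in WT_ES, and Alb stays near 0.

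Upstream sequences of 5 members are printed here because these members take 3 courses in the data: Apoa1, Apob and Rbp4 differ between the day 6 libraries, Afp does not differ 2-fold, and Alb is hardly detected. Each is the 250 bases before a transcription start in RefSeq on mouse build GRCm38.p6, at chr9:46228380-46228629 on the plus strand for Apoa1, chr12:7977427-7977676 on the plus strand for Apob, chr19:38124812-38125061 on the minus strand for start 2 of Rbp4, chr5:90490464-90490713 on the plus strand for Afp and chr5:90460620-90460869 on the plus strand for Alb. Capitals mark matches on either strand to the HNF1 half-site GTTAAT or the GATA motif GATAAG, and on the gene's own strand to TATAAA.
Apoa1: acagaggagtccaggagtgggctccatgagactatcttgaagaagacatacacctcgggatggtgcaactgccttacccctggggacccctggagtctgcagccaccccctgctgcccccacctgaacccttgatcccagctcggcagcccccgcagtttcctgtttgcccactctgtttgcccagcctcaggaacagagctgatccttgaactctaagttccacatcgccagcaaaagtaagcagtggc
Apob: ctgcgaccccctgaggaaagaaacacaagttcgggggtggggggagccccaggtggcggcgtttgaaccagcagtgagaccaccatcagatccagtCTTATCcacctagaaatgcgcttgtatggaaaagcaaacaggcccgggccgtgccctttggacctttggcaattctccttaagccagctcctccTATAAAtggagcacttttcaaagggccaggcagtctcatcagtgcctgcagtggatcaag
Rbp4: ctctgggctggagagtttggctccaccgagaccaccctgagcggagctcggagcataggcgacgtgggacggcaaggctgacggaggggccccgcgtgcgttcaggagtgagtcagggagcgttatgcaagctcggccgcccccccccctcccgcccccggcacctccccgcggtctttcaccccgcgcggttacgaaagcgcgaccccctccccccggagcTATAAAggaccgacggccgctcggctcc
Afp: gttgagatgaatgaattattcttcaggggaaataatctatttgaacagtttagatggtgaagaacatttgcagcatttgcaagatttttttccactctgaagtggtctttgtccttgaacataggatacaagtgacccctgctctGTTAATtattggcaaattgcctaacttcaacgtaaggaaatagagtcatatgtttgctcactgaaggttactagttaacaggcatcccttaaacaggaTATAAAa
Alb: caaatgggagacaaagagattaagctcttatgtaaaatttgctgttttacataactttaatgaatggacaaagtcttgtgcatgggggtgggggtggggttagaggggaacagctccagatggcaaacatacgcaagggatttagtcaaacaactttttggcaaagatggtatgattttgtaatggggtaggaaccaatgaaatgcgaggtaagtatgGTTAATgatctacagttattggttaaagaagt

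Because the knockout is labelled as lacking enzymes that methylate cytosine in CpG dinucleotides, the CpG number of each stretch was counted, and it differed widely among the members. RefSeq windows were found for 9 of the 10 members. The Afp stretch held 1 CpG, fewer than the median of 6 over 32851 windows of the same length from 27025 genes, and 7.87% of windows held fewer. The stretches of Alb and Cubn held 2 each, that of Apoa1 held 4, that of Apob 7 and that of Amn 11. Rbp4 held 5 CpGs before its start 1 and 28 before its start 2, above 92.4% of windows. Dab2 held 2 and 17 before its 2 starts, and Apoe 8, 9 and 10 before its 3 starts. Among the members lower in DKO_NP, Cubn thus held 2, and Rbp4 held 5 or 28 depending on the start. Which start these cells used is not known, and a link between CpG number and the ratios was not tested.

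Motifs of factors that act in endoderm and liver were searched in the 13 windows of the 9 members. GTTAAT was found in 4 of them, before Afp (at -105 relative to the start), Alb (at -32) and 1 start each of Apoe and Dab2, and 6.43% of all windows hold it. GATAAG was found in 1 of them, before Apob (at -154), and 6.55% of all windows hold it. The HNF4 motif AAAGTCC, searched on both strands, was found before none of the 9 members and is in 3.58% of windows. TATAAA was found before Apob, Afp, start 2 of Rbp4 and 1 start of Apoe, and is in 7.59% of windows. A match is a run of letters and not a binding site, and the files hold no measurement of methylation or binding.

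Depth and labels set the frame for the values. From the smallest steps between low FPKM values the libraries' totals were put at about 13.4 to 35.2 M reads, so that 3 reads on a transcript of 2 kb correspond to 0.0426 to 0.112 FPKM. Between 12756 and 13128 genes reached 1 FPKM in each library. As deposited, the median gene was 0.39 higher in log2 in DKO_NP than in WT_NP and 0.82 lower in WT_NP than in WT_ES, and scaling removed these shifts. The targeted Dnmt3b stood at 5.22 FPKM in DKO_NP and 9.98 in WT_NP, and at 13.9 in DKO_ES and 140.3 in WT_ES. Dnmt3a stood at 4.14 FPKM in DKO_NP and 17.2 in WT_NP, and at 12.3 in DKO_ES and 35.3 in WT_ES. Both targeted genes were thus lower but not absent in the knockout libraries, and gene-level values cannot show which exons were read.

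The apolipoproteins carry lipid in plasma and lymph. Apoa1, the main protein of high-density lipoprotein, had 7.75 FPKM in DKO_NP and 35.4 in WT_NP, and 0.299 in DKO_ES and 0.651 in WT_ES. It came next after Apoe among the members in both day 6 libraries and stood under 1 FPKM in both day 0 libraries. Its level was 6.17-fold lower in DKO_NP than in WT_NP (5.31 to 7.21), a log2 ratio of -2.49. It was 35.7-fold higher in DKO_NP than in DKO_ES (14.4 to 119.9), a ratio that rests on about 4.51 reads in DKO_ES. The rank of the gene shows the same step: 34.0% of all genes were above Apoa1 in DKO_NP and 6.86% in WT_NP.

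Apob, the large scaffold protein of very low-density and low-density lipoprotein, had 1.83 FPKM in DKO_NP and 10.3 in WT_NP, and 0.188 in DKO_ES and 0.288 in WT_ES. It was 7.66-fold lower in DKO_NP than in WT_NP (7.05 to 8.34). Because its transcript is long, these values rest on about 619.9 and 5079 reads, and its interval is narrow. Between day 0 and day 6 the fold was 13.4 in the knockout, DKO_NP over DKO_ES (9.68 to 19.2), and 70.8 in the wild type, WT_NP over WT_ES (54.1 to 94.4). Apob was therefore higher at day 6 than at day 0 in both lines, with a lower day 6 level in the knockout. The size of the folds depends on the scaling. With the pseudocount, its log2 ratio in WT_NP against WT_ES was 3.75 after scaling and 3.14 as deposited. In DKO_NP against DKO_ES it was 1.39 after scaling and 1.25 as deposited.

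Apoe, a ligand of the low-density lipoprotein receptor family that is made by many cell types, had 129.5 FPKM in DKO_NP and 179 in WT_NP, and 437 in DKO_ES and 379 in WT_ES. Alone among the 10 it was abundant in undifferentiated cells, and it supplied 81.3% of the members' summed FPKM in DKO_NP, 61.3% in WT_NP, 98.4% in DKO_ES and 97.1% in WT_ES. It was 1.87-fold lower in DKO_NP than in WT_NP (1.80 to 1.94), inside the 2-fold limit. It was 2.45-fold lower in DKO_NP than in DKO_ES (2.36 to 2.54), the only member that fell with differentiation in the knockout. Between WT_NP and WT_ES its log2 ratio was -0.11 after scaling and -1.08 as deposited, so whether Apoe changed in wild-type cells depends on the scaling.

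A pair of carriers bind each other in plasma: retinol-binding protein, the product of Rbp4, transports retinol and travels bound to transthyretin, the product of Ttr, which also carries thyroid hormone. Rbp4 had 6.17 FPKM in DKO_NP and 32.4 in WT_NP, and 4.91 in DKO_ES and 4.73 in WT_ES. It was thus present before differentiation at nearly equal levels in both lines, and the WT_NP library stood apart from the other 3. Rbp4 was 7.12-fold lower in DKO_NP than in WT_NP (6.07 to 8.38). In WT_NP its level was 13.5 times that in WT_ES (10.7 to 17.3), while DKO_NP and DKO_ES differed by 1.73-fold (1.33 to 2.28), inside the 2-fold limit.

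Ttr had 2.58 FPKM in DKO_NP and 16.7 in WT_NP, and was listed at 0 in both DKO_ES and WT_ES. At these depths 3 reads would give 0.174 FPKM in DKO_ES and 0.189 in WT_ES, so a level below these would rest on fewer reads and could be missed. Ttr was 8.75-fold lower in DKO_NP than in WT_NP (6.89 to 11.3), on about 74.5 and 697 reads, the largest ratio among the 8 members tested. No fold is given against the libraries at 0. Both carriers were lower in DKO_NP, and they differed at day 0, where only Rbp4 was detected.

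Alpha-fetoprotein and albumin are related plasma proteins encoded side by side, the first made mainly before birth and the second the main plasma protein of later life. Afp had 6.79 FPKM in DKO_NP and 6.18 in WT_NP, and 0.0311 in DKO_ES and 0.0338 in WT_ES, which is about 1 read in each day 0 library. The day 6 libraries therefore held nearly the same Afp level in both lines, unlike the other carriers that appeared with differentiation. The ratio was 1.23-fold lower in DKO_NP than in WT_NP after scaling (1.07 to 1.42), and its log2 value of -0.27 turned to 0.12 as deposited. Against about 1 read, Afp was 301-fold higher in DKO_NP than in DKO_ES (51.2 to 14951) and 359.6-fold above WT_ES in WT_NP (61.2 to 17838), intervals too wide to size the rise. Alb had 0.0190 FPKM in DKO_NP, was listed at 0 in WT_NP, had 0.0318 in DKO_ES and was listed at 0 in WT_ES. Its values amount to about 1 read where any was counted, so Alb was not detected above counting noise in any of the 4 libraries.

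The endocytic genes act in uptake rather than secretion. Cubn encodes cubilin, the receptor that binds apolipoprotein A-I and other ligands, and had 1.21 FPKM in DKO_NP and 5.21 in WT_NP, and 0.294 in DKO_ES and 1.39 in WT_ES. It was 5.80-fold lower in DKO_NP than in WT_NP (5.17 to 6.53). Dab2, the adaptor that links such receptors to clathrin, had 2.99 FPKM in DKO_NP and 5.88 in WT_NP, and 0.650 in DKO_ES and 2.18 in WT_ES. It was 2.67-fold lower in DKO_NP than in WT_NP (2.35 to 3.03). As deposited the log2 ratio of Dab2 was -0.79 instead of -1.19, inside the 2-fold limit. Amn encodes amnionless, the membrane partner that brings cubilin to the cell surface, and had 0.496 FPKM in DKO_NP and 0.751 in WT_NP, and 0.513 in DKO_ES and 1.97 in WT_ES. Below the filter, it was 2.05-fold lower in DKO_NP than in WT_NP (1.19 to 3.64). Amn was highest in WT_ES and never reached 2 FPKM. With differentiation of wild-type cells the partners of 1 receptor did not rise together. Cubn in WT_NP stood 7.37-fold above WT_ES (6.39 to 8.54), whereas Amn was 1.34-fold lower, with an interval that includes 1 (0.865 to 2.07). Between the day 6 libraries both Cubn and Amn were lower in DKO_NP. The size of both Amn ratios depends on the scaling, and the intervals of Amn hold after scaling only. In WT_NP against WT_ES its log2 ratio was -0.24 after scaling and -0.76 as deposited. In DKO_NP against WT_NP it was -0.45 after scaling and -0.23 as deposited.

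The same endocytic genes also had smaller values in DKO_ES than in WT_ES, below the level at which they were called. Without the pseudocount Cubn was 4.48-fold lower in DKO_ES (3.26 to 6.26), Amn 3.65-fold lower (1.93 to 7.44) and Dab2 3.18-fold lower (2.25 to 4.57). All 3 stood below 2.2 FPKM in both libraries, where a pseudocount of 1 FPKM shrinks ratios, and their log2 ratios with it were -0.73, -0.82 and -0.80. With a pseudocount of 0.1 FPKM these 3 passed 2-fold, and 2.46% of all genes were then called in that direction. All 3 had passed the filter only through WT_ES. The day 0 libraries had the lowest depth, with about 12.7 to 48.3 reads for these genes in DKO_ES and 45.0 to 209.5 in WT_ES. Apoa1 and Apob, under 1 FPKM in both, were 2.06-fold (0.602 to 8.39) and 1.45-fold (0.943 to 2.26) lower in DKO_ES, with intervals that include 1. Rbp4 and Apoe differed by 1.09-fold (0.790 to 1.52) and 1.22-fold (1.18 to 1.26) between DKO_ES and WT_ES, both higher in DKO_ES.

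**Figure D2:**
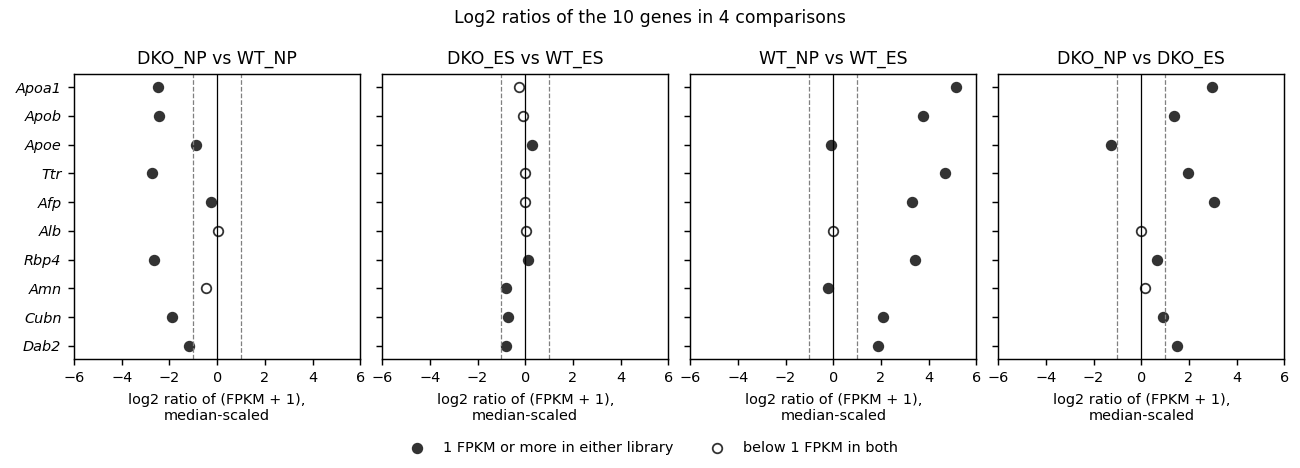
Log2 ratios of median-scaled FPKM + 1 (horizontal axis) for each of the 10 genes in 4 comparisons, filled where the gene reached 1 FPKM in either library and open where it did not. Dashed lines mark 2-fold. In DKO_NP against WT_NP 6 filled points lie left of the lower line, and in DKO_ES against WT_ES no point lies outside the lines.

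Within a library, ratios between members do not depend on scaling, and the order of the members differed between the day 6 libraries. In DKO_NP the order by FPKM was Apoe, Apoa1, Afp, Rbp4, Dab2, Ttr, Apob, Cubn, Amn and Alb. In WT_NP it was Apoe, Apoa1, Rbp4, Ttr, Apob, Afp, Dab2, Cubn, Amn and Alb, so that Afp held place 3 in DKO_NP and place 6 in WT_NP, and Dab2 place 5 in DKO_NP and place 7 in WT_NP. Apoa1 stood at 1.14 times Afp in DKO_NP (0.953 to 1.37) and 5.72 times Afp in WT_NP (5.14 to 6.38). Rbp4 stood at 0.909 times Afp in DKO_NP (0.753 to 1.09) and 5.25 times Afp in WT_NP (4.71 to 5.85). In DKO_NP neither Apoa1 nor Rbp4 could thus be told apart from Afp within counting error, and in WT_NP the same holds of Afp and Dab2, where Dab2 was 0.952 times Afp (0.851 to 1.07).

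The other members shifted against Afp as well. Ttr was 0.380 times Afp in DKO_NP (0.292 to 0.490) and 2.70 times in WT_NP (2.40 to 3.05). Apob was 0.269 times Afp in DKO_NP (0.236 to 0.308) and 1.67 times in WT_NP (1.52 to 1.85). Cubn was 0.179 times Afp in DKO_NP (0.153 to 0.209) and 0.843 times in WT_NP (0.760 to 0.935). The intervals of the DKO_NP and WT_NP libraries do not overlap for any of these 5 ratios nor for Dab2, at 0.440 times in DKO_NP (0.377 to 0.513), or Apoe, at 19.1 times in DKO_NP (17.1 to 21.4) and 28.9 times in WT_NP (26.3 to 31.9). Only Amn, at 0.0731 times in DKO_NP (0.0444 to 0.114) and 0.122 times in WT_NP (0.0874 to 0.165), had overlapping intervals. All these ratios use the same Afp values, so they restate the day 6 differences given above and add no separate observation. How often other genes shift against Afp in this way was not counted. Leaving out Apoe, the members summed to 29.8 FPKM in DKO_NP, 113 in WT_NP, 6.92 in DKO_ES and 11.2 in WT_ES as deposited. After scaling the sums were 32.9 in DKO_NP, 168 in WT_NP, 5.53 in DKO_ES and 8.52 in WT_ES.

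At day 0 the order was led by Apoe and Rbp4 in both lines, followed by Dab2 and Amn. The 2 genes that sat lowest with any signal were Apob and Afp in WT_ES, and Alb and Afp in DKO_ES. In DKO_ES 2 members reached 1 FPKM, Apoe and Rbp4, against 5 in WT_ES, where Dab2, Amn and Cubn joined them.

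The genes that work with the members were set beside them in 4 lists. In DKO_NP against WT_NP 4.76% of all genes tested were higher and 7.99% were lower after scaling. As deposited 10.2% were higher and 3.90% were lower. Of 22 uptake partners (receptors of the low-density lipoprotein family, clathrin, its adaptors and other scavenger receptors), all 22 were tested in DKO_NP against WT_NP, 2 were higher and 3 were lower, with a median log2 ratio of 0.04 that was 0.42 as deposited and within 0.01 of 0 with upper-quartile scaling. Megalin, the product of Lrp2 and the partner of cubilin in uptake, had 13.5 FPKM in DKO_NP and 10.01 in WT_NP, 22.1 in DKO_ES and 22.1 in WT_ES. After scaling Lrp2 differed by 0.999-fold between DKO_NP and WT_NP (0.961 to 1.04), while its log2 ratio as deposited was 0.40. Megalin RNA therefore did not follow that of cubilin.

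Receptors in the same list moved both ways, and with few genes called no direction is given for the list at day 6. Lrp1, a broad scavenger and apolipoprotein E receptor, had 18.5 FPKM in DKO_NP and 32.5 in WT_NP and was 2.38-fold lower in DKO_NP (2.32 to 2.45), with a log2 ratio of -1.21 after scaling and -0.78 as deposited. Fcgrt, the neonatal Fc receptor that also binds albumin, had 20.01 FPKM in DKO_NP and 3.66 in WT_NP and was 4.04-fold higher in DKO_NP (3.49 to 4.70). Folr1, a folate receptor, had 16.5 FPKM in DKO_NP and 5.55 in WT_NP and was 2.19-fold higher in DKO_NP (1.88 to 2.55). The general machinery stayed within 2-fold: clathrin heavy chain, Cltc, had 159.8 FPKM in DKO_NP and 113 in WT_NP, a log2 ratio of 0.06. Across differentiation of wild-type cells the list had 4 higher and 2 lower after scaling but 1 higher and 13 lower as deposited. Among all genes tested 16.2% were higher and 11.3% lower after scaling, and 6.40% and 41.7% as deposited. No direction is given for the list there either.

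Lipoprotein assembly genes were mixed, and the transfer protein that loads lipid onto apolipoprotein B was among the lower ones. Of 21 genes in this list 14 were tested in DKO_NP against WT_NP, 1 was higher and 3 were lower, with a median of -0.55. As deposited the list had 3 higher and 2 lower. Mttp, the microsomal triglyceride transfer protein, had 3.44 FPKM in DKO_NP and 14.02 in WT_NP, 1.89 in DKO_ES and 4.50 in WT_ES, and was 5.51-fold lower in DKO_NP than in WT_NP (4.90 to 6.21). Its partner subunit P4hb, a general protein disulfide isomerase, had 212 FPKM in DKO_NP and 197 in WT_NP, a log2 ratio of -0.33 after scaling and 0.10 as deposited. Apoa2, another protein of high-density lipoprotein, had 2.76 FPKM in DKO_NP and 5.11 in WT_NP, and its log2 ratio of -1.09 after scaling was -0.70 as deposited.

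Other secreted plasma proteins and the vitamin A genes differed from each other. Of 21 other plasma protein genes 8 were tested, 1 was higher in DKO_NP and 4 were lower, with a median of -1.08. Fgb, a chain of fibrinogen, had 1.61 FPKM in DKO_NP and 5.83 in WT_NP, was listed at 0 in DKO_ES and WT_ES, and was 4.90-fold lower in DKO_NP than in WT_NP (4.11 to 5.88). Trf, the iron carrier transferrin, went the other way with 7.01 FPKM in DKO_NP and 0.829 in WT_NP, 6.24-fold higher in DKO_NP (4.88 to 8.08). Of 11 vitamin A genes 7 were tested, 1 was higher and 1 was lower with a median of 0.71, and as deposited 4 were higher and 1 was lower. Aldh1a2, which makes retinoic acid, had 1.83 FPKM in DKO_NP and 6.35 in WT_NP and was 4.68-fold lower in DKO_NP (3.78 to 5.86). Crabp2, an intracellular carrier of retinoic acid, had 718 FPKM in DKO_NP and 253 in WT_NP and was 2.10-fold higher in DKO_NP (2.04 to 2.15). Both Rbp4 and Aldh1a2 were thus lower in DKO_NP, while the intracellular carriers Crabp2 and Crabp1 had log2 ratios of 1.07 and 0.96.

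**Figure D3:**
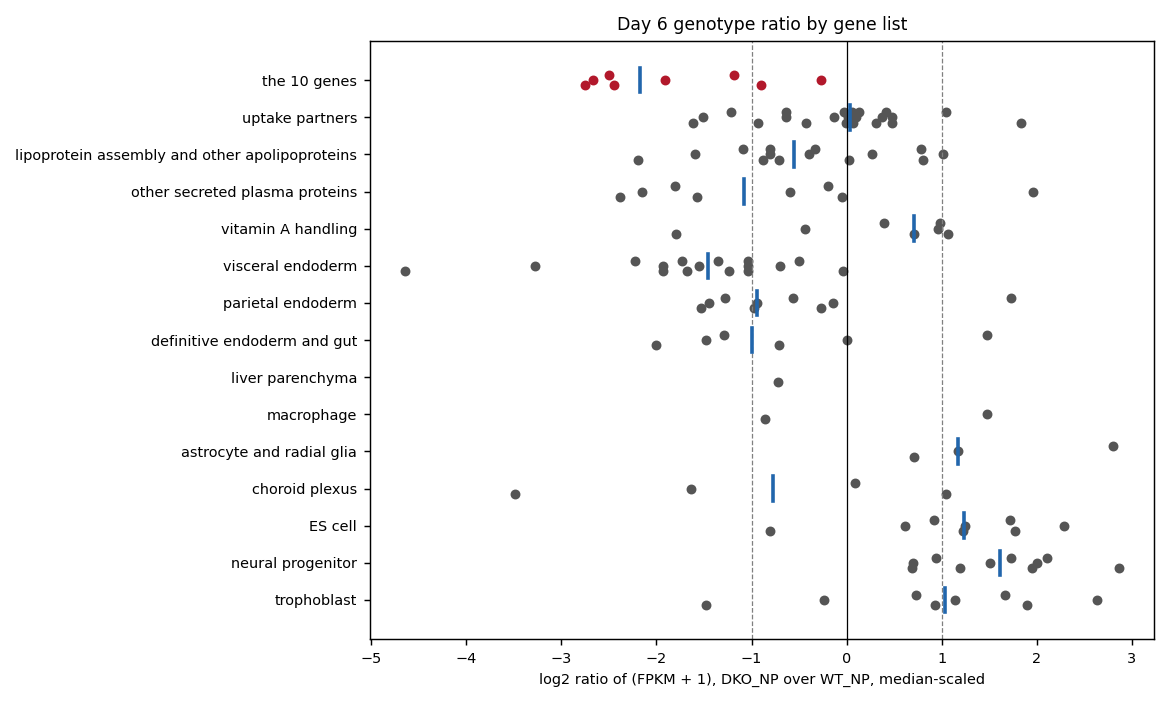
Log2 ratio of median-scaled FPKM + 1 in DKO_NP over WT_NP (horizontal axis) for each tested gene of the 10 members (red), 4 lists of genes that work with them and 10 marker lists of cell types, with a blue bar at the median where a list has 3 or more tested genes and dashed lines at 2-fold. The members and the visceral endoderm list lie mostly left of 0, and the ES cell and neural progenitor lists mostly right of it.

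Markers of visceral endoderm other than the members moved with them. Of 20 such markers 16 were tested in DKO_NP against WT_NP, 13 were lower and 0 were higher, with a median of -1.45. As deposited 8 were lower. Among all genes tested 7.99% were lower after scaling and 3.90% as deposited. In DKO_NP 14 of the list reached 1 FPKM and in WT_NP 16, and without a filter the median was -1.14. The summed level of the 20 markers was 341 FPKM in DKO_NP, 612 in WT_NP, 119 in DKO_ES and 187 in WT_ES. Of these markers 1, S100g, was listed at 0 in WT_ES. Gata4, a zinc finger factor of endoderm and heart, had 0.779 FPKM in DKO_NP, 30.4 in WT_NP, 0.495 in DKO_ES and 1.69 in WT_ES, and Gata6, its relative in the same tissues, had 2.45 FPKM in DKO_NP, 23.3 in WT_NP, 0.430 in DKO_ES and 0.808 in WT_ES. Sox17, an endoderm factor, did not follow them, with 5.82 FPKM in DKO_NP and 4.44 in WT_NP and a log2 ratio of -0.04 after scaling and 0.33 as deposited. Ctsh, a lysosomal protease, had 2.29 FPKM in DKO_NP and 10.4 in WT_NP and was 6.15-fold lower in DKO_NP (4.92 to 7.77). The abundant epithelial genes differed less, with log2 ratios of -1.35 for Cldn6, -1.04 for Krt8 and -1.03 for Krt18, which were -0.91, -0.60 and -0.60 as deposited. In bulk RNA fewer cells of a type and less RNA per cell cannot be told apart, and the part that the share of such cells had in the members' ratios was not tested.

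The other marker lists differed between the day 6 libraries too, where 4.76% of all genes tested were higher in DKO_NP and 7.99% were lower. Of 10 neural progenitor markers 7 were higher in DKO_NP and 0 were lower, with a median of 1.61. Their summed level as deposited was 281 FPKM in DKO_NP, 81.7 in WT_NP, 56.8 in DKO_ES and 47.7 in WT_ES. After scaling it was 309 in DKO_NP and 122 in WT_NP. Of 8 ES cell markers 5 were higher in DKO_NP and 0 were lower, with a median of 1.23. Their summed level as deposited was 411 FPKM in DKO_NP, 97.1 in WT_NP, 7611 in DKO_ES and 6789.8 in WT_ES. After scaling it was 452 in DKO_NP and 145 in WT_NP. Pou5f1, the core pluripotency factor, had 23.4 FPKM in DKO_NP and 11.04 in WT_NP. Of 9 tested parietal endoderm markers 1 was higher and 3 were lower (median -0.94), with a summed level of 317 FPKM in DKO_NP, 452 in WT_NP, 332 in DKO_ES and 382 in WT_ES. Of 6 tested markers of definitive endoderm and gut 1 was higher and 3 were lower (median -0.9998). Only 3 of this list reached 1 FPKM in DKO_NP against 6 in WT_NP, so some passed the filter through WT_NP alone. Without a filter its median was -0.30, with the same counts called. Of 8 trophoblast markers 4 were higher and 1 was lower (median 1.04). Of 3 tested markers of astrocytes and radial glia 2 were higher and 0 were lower (median 1.17). In that list 3 reached 1 FPKM in DKO_NP and 1 in WT_NP, and the median without a filter was -0.06. The part of these cell types in the members' ratios was not tested.

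Markers of other cell types that make members differed in level. Liver parenchyma, which makes most of the same plasma proteins, had 0 of 10 markers at 1 FPKM in DKO_NP and 1 in WT_NP, Cyp2e1 at 1.36 FPKM, and a summed level of 1.27 to 3.43 FPKM over the 4 libraries. Of those markers Cyp3a11 and Hpd were listed at 0 in both day 6 libraries (both named after their values were seen). Choroid plexus, which makes Ttr in the brain, had 1 marker higher and 2 lower of 4 tested, with a summed level of 20.9 FPKM in DKO_NP and 29.1 in WT_NP. Its markers ranged widely: Folr1 had 16.5 FPKM in DKO_NP and 5.55 in WT_NP, Clic6 had 1.55 in DKO_NP and 19.7 in WT_NP, and Aqp1 had 0.507 in DKO_NP and 2.58 in WT_NP. Kl had 0.0285 in DKO_NP and 0.113 in WT_NP, and Kcne2 had 0.0470 in DKO_NP and 0.0487 in WT_NP. The last 4 were named after their values were seen. Clic6 and Aqp1 were thus lower in DKO_NP, as Ttr was, with log2 ratios of -3.49 and -1.64. Folr1 and Otx2 were not, with log2 ratios of 1.04 and 0.09. Lmx1a, also named after its values were seen, had 0.782 FPKM in DKO_NP and 0.216 in WT_NP. Without a filter the median of the choroid plexus list was 0.03. The part of such cells in the ratio of Ttr was not tested. Macrophages, which make Apoe, had 2 of 8 markers at 1 FPKM in DKO_NP and 1 in WT_NP, with Cd68 at 3.44 FPKM in DKO_NP and 5.14 in WT_NP. Lyz2 had 2.26 FPKM in DKO_NP and 0.170 in WT_NP, a log2 ratio of 1.48, and Emr1 was listed at 0 in all 4 libraries.

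The genes beside members on the chromosome gave a further comparison. Apoa1 lies in a cluster of apolipoprotein genes on chromosome 9, and each of these relatives had a smaller value in DKO_NP than in WT_NP. Apoa4, a lipoprotein component, had 1.65 FPKM in DKO_NP, 5.04 in WT_NP, 0 in DKO_ES and 0.0435 in WT_ES and was 4.13-fold lower in DKO_NP than in WT_NP (3.20 to 5.41). Apoc3, an inhibitor of triglyceride clearance, had 0.547 FPKM in DKO_NP and 1.21 in WT_NP, 2.99-fold lower in DKO_NP (1.40 to 7.02) with a log2 ratio of -0.81. Apoa5 was below the filter, at 0.0331 FPKM in DKO_NP and 0.605 in WT_NP. The genes on the other side of Apoa1 did not differ 2-fold: Sik3 had 7.95 FPKM in DKO_NP and 6.24 in WT_NP, and Pafah1b2 had 53.2 FPKM in DKO_NP and 30.2 in WT_NP, with log2 ratios of -0.08 and 0.37.

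Apoe and its neighbour Apoc1, a small apolipoprotein, on chromosome 7 went together in some comparisons and apart in others. Apoc1 had 21.1 FPKM in DKO_NP and 7.38 in WT_NP, and 202 in DKO_ES and 102 in WT_ES. Like Apoe it was abundant at day 0, but it was 2.11-fold higher in DKO_NP than in WT_NP (1.71 to 2.61) and 2.08-fold higher in DKO_ES than in WT_ES (1.90 to 2.27). The log2 ratio of Apoc1 at day 6 was 1.01, and 0.97 with upper-quartile scaling, against -0.90 for Apoe. In DKO_NP against DKO_ES both fell, with log2 ratios of -2.75 for Apoc1 and -1.29 for Apoe. Beside Afp and Alb on chromosome 5, Afm, which encodes the related protein afamin, was listed at 0 in DKO_NP and at 0.0266 FPKM in WT_NP, so Afp was the only member of that cluster detected. Of the genes next to Ttr on chromosome 18, the desmosomal cadherin gene Dsg2 had 6.23 FPKM in DKO_NP, 13.3 in WT_NP, 6.82 in DKO_ES and 12.3 in WT_ES, a day 6 log2 ratio of -1.41. On the other side of Ttr, B4galt6 had 13.3 FPKM in DKO_NP and 9.32 in WT_NP, a log2 ratio of 0.07. The nearest neighbours of Apob on chromosome 12, Klhl29 and 1110057K04Rik, had log2 ratios of -0.06 and -0.18.

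**Figure D4:**
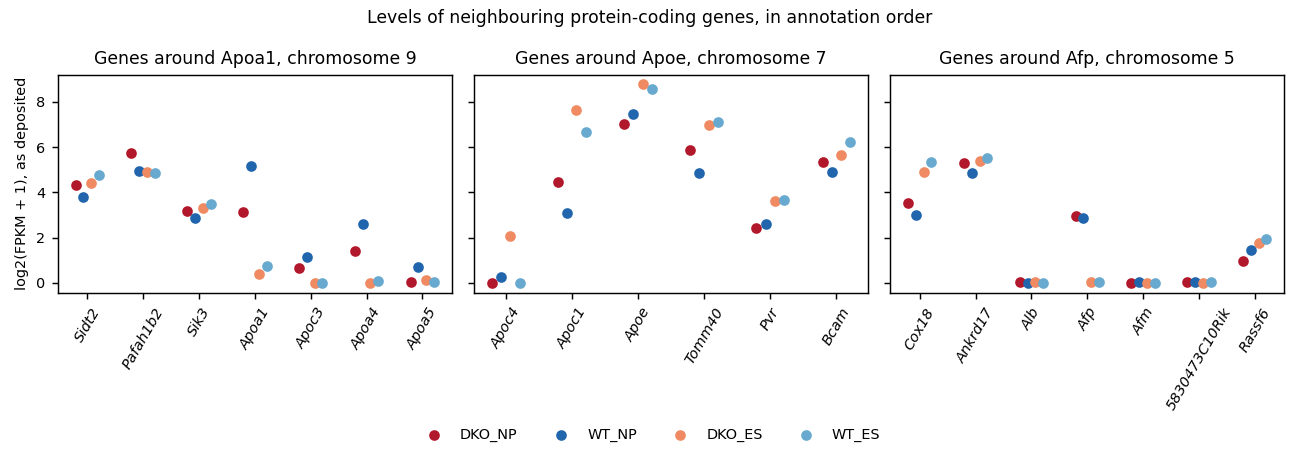
Log2 of deposited FPKM + 1 (vertical axis) of protein-coding genes in annotation order around Apoa1, Apoe and Afp, with 1 point per library. Around Apoa1 the points of DKO_NP and WT_NP separate for Apoa1 and Apoa4 and lie close for Sik3, and around Afp only Afp rises above 0 among the albumin family genes.

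A common profile was taken as the median of the members' profiles, each being log2 of scaled FPKM + 1 in the 4 libraries minus its mean, and it was set against 11114 other genes at or above 5 FPKM in some library. The nearest genes by root mean square distance over the 4 libraries were Prrx2 at 0.0883, Cgnl1 at 0.0903, Lpar3 at 0.112, Mogat2 at 0.113 and Crispld2 at 0.118. Cgnl1, a protein of cell junctions, had 8.05 FPKM in DKO_NP, 21.9 in WT_NP, 3.79 in DKO_ES and 5.62 in WT_ES. Mogat2, an enzyme of triglyceride synthesis, had 2.10 FPKM in DKO_NP, 6.69 in WT_NP, 0.895 in DKO_ES and 1.34 in WT_ES. These 5 were picked as the closest. The members' own distances ran from 0.223 for Cubn and 0.237 for Dab2 to 1.14 for Apoa1 and 1.33 for Apoe, and the measure counts a larger range of levels as distance. A profile of 4 points is a coarse measure of likeness.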

How the data were processed

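RNA was measured in 4 mouse libraries, 1 each of DKO_NP, WT_NP, DKO_ES and WT_ES. TruSeq libraries were made from 5 µg of RNA after removal of rRNA, with 15 PCR cycles, and sequenced single-end for 50 cycles, per the labels' protocols. Bowtie, TopHat and the mouse build mm9 are named per the submitters' processing notes; for their versions, the FPKM program and its annotation, the sources used here give nothing. The authors deposited FPKM, which are not counts; 18 blank rows were left out and 0 columns were unmapped. Strand is not stated, so sense and antisense reads of overlapping genes may be mixed.

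Scaling to a common median used the genes that reached 1 FPKM in all 4 libraries. Log2 ratios used scaled FPKM + 1 (understating low genes), with 1 FPKM required in either library, and 2-fold as the call; no test was possible with 1 library per group. Folds are ratios without the pseudocount. Single FPKM values and summed levels are as deposited unless scaling is named. Approximate reads came from steps of low FPKM values and GENCODE M21 lengths of 145 single-transcript genes (lengths matched 89.7% of symbols), and gave exact Clopper-Pearson 95% intervals; transcript lengths may differ from the authors'. The ratio code was tested on simulated data. RefSeq windows on GRCm38.p6 were used for sequence only. Python 3.11.15, numpy 2.4.6, pandas 2.3.3, scipy 1.17.1 and matplotlib 3.10.9 were used.

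Members, lists and rules were chosen with earlier results of these data known. Genes named were all members; of each working list and the visceral endoderm list, the 3 largest day 6 ratios among genes at or above 5 FPKM there and any gene at 50 FPKM; of each other marker list the 2 most abundant; Dnmt3a and Dnmt3b; and the 5 nearest profiles. Values are given for those a result turns on. A gene under this rule is not reported here. Neighbouring genes, Lrp2, Sox17, S100g, Emr1, Cyp3a11, Hpd, Clic6, Aqp1, Kl, Kcne2, Lmx1a, Hnf4a and Pyy were named outside this rule after their values were seen. Alternatives were FPKM as deposited, upper-quartile scaling, pseudocounts of 0.1 and 5 FPKM, no filter and a filter at 5 FPKM. Scaling alternatives for the lists were added after seeing the data.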

Additional observations from a re-analysis of the deposited data

Results flagged for a closer look

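Outside the 10 members, 3 list genes moved in opposite directions between lines or days, each by more than 2-fold. The difference was not tested because each group has 1 library. Only members and list genes were searched, and how many of all genes meet this rule was not counted. Hnf4a, an endoderm and liver factor in the visceral endoderm list, had a log2 ratio of -1.04 in DKO_NP against DKO_ES and 1.27 in WT_NP against WT_ES. Its levels were 0.253 FPKM in DKO_NP, 2.08 in WT_NP, 2.04 in DKO_ES and 0.918 in WT_ES. It thus passed the filter only through DKO_ES in the knockout and only through WT_NP in the wild type. As deposited its wild-type differentiation ratio was 0.68. Spink3, a secreted trypsin inhibitor in the plasma protein list, had a log2 ratio of -1.77 in DKO_NP against DKO_ES and 1.64 in WT_NP against WT_ES. By genotype its log2 ratio was -2.15 in DKO_NP against WT_NP and 1.27 in DKO_ES against WT_ES. As deposited its wild-type differentiation ratio was 0.70, inside 2-fold. Pyy, a gut hormone gene in the definitive endoderm and gut list, had a log2 ratio of -2.00 in DKO_NP against WT_NP and 1.13 in DKO_ES against WT_ES. The paired ratios of a gene share no library within a pair, but the pairs were drawn from the same 4 libraries.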

How the results depend on the processing

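The counts and medians of the members kept their direction under these alternatives except the median in DKO_ES against WT_ES with the filter at 5 FPKM, and upper-quartile scaling moved no count by over 1.5 times. As deposited the members' median log2 ratio was -1.75 in DKO_NP against WT_NP (main value -2.18), 2.54 in WT_NP against WT_ES (3.32) and -0.67 for the difference of differentiation ratios (-1.18), and 1 member, Apoe, was lower in WT_NP than in WT_ES (main value 0). With a pseudocount of 0.1 FPKM the medians were -2.53 in DKO_NP against WT_NP, -1.50 in DKO_ES against WT_ES (-0.73), 3.72 in WT_NP against WT_ES and 2.77 in DKO_NP against DKO_ES (1.44), and 3 members were lower in DKO_ES. With a pseudocount of 5 FPKM they were -1.28, -0.21, 1.50 and 0.52 in the same order. Then 2 of 8 members were higher in DKO_NP than in DKO_ES (main value 5), beside 4.80% of all genes tested. Without a filter the medians were -1.55 in DKO_NP against WT_NP, -0.042 in DKO_ES against WT_ES and 2.70 in WT_NP against WT_ES. With the filter at 5 FPKM the value in DKO_ES against WT_ES was 0.28, from 1 gene, and the difference had a median of -1.70. Only 4 members were then tested in DKO_NP against DKO_ES, and 2 of them were higher, beside 10.3% of all genes tested. Of 200 single values 14 crossed 2-fold and 5 changed sign, 4 of these as deposited. The filter changes which genes are counted, and the cause of the other shifts was not tested. No paired analysis was possible because each group has 1 library. Leaving out a library was not possible for the same reason. Depth limits values near 0.1 FPKM and below, which rest on a few reads, and no spread between cultures can be had.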
